A study of Mus musculus with 4 samples.

Results

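The 10 genes described here act in the shortening of poly(A) tails and in the clearance of maternal mRNA: the CCR4-NOT nucleases Cnot6, Cnot6l, Cnot7 and Cnot8, the scaffold Cnot1, the adaptor Btg4, the recruiters Zfp36l1 and Zfp36l2, the poly(A)-binding protein Pabpn1l, and the cytoplasmic polyadenylation factor Cpeb1. They were chosen by symbol from 20714 gene symbols listed in both assays. Each symbol was matched in all 4 libraries, and 0 of the 10 symbols were listed more than once. The libraries were 2 RNA-seq and 2 Ribo-seq replicates of untreated wild-type (WT) mouse blastocysts. The embryos came from females of 4 weeks of age and were taken as 8-cell embryos, KSOM culture brought them to blastocysts, and the zona pellucida was removed with acidic Tyrode's solution. The strain label is C57BL/6N x PWK, whereas the protocol gives C57BL/6J mothers and PWK/PhJ fathers. No source used here says whether the replicates were separate pools of embryos, so every p-value below measures the spread between libraries, which may be technical. Libraries of oocytes and earlier embryos were not analysed here, and the only contrast was of ribosome-protected fragments (RPF, from Ribo-seq) with mRNA (from RNA-seq) within the blastocyst.

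CCR4-NOT is the main cytoplasmic deadenylase of animal cells. CNOT1 is its scaffold, CNOT7 or CNOT8 fills the CAF1 nuclease position, and CNOT6 or CNOT6L fills the CCR4 nuclease position. In the maturing mouse oocyte, BTG4 links CCR4-NOT to maternal transcripts, the ZFP36 proteins bring it to AU-rich elements, PABPN1L works with BTG4 in the same clearance, and CPEB1 controls the tail length of stored transcripts.

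Because the genes include close paralogs, the longest exact runs that their coding sequences share are shown first, since a footprint that falls inside such a run could be assigned to either gene. Each stretch is the sense strand read 5′ to 3′ on NCBIM37 (the assembly of mm9), lies in coding exons, and carries the shared run in capitals with 10 bases on either side. The Cnot6 and Cnot6l stretches were at chr11:49490934-49490973 and chr5:96509084-96509123, both on the minus strand.
Cnot6: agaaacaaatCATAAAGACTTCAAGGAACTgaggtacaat
Cnot6l: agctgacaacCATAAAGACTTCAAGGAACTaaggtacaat

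The Cnot7 stretch (minus strand) spanned 2 coding exons between chr8:41584775 and 41586126, and the Cnot8 stretch (plus strand) spanned 2 coding exons between chr11:57926695 and 57927470.
Cnot7: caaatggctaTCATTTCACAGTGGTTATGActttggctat
Cnot8: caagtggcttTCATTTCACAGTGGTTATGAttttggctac

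The Zfp36l1 and Zfp36l2 stretches were at chr12:81211086-81211137 and chr17:84585918-84585969, both on the minus strand, in the part that encodes the tandem zinc fingers.
Zfp36l1: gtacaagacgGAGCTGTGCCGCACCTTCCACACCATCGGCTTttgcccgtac
Zfp36l2: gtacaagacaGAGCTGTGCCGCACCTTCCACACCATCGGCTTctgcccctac

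Both nuclease pairs shared runs of at most 20 bases, shorter than a window of 28 bases, the length used here for a footprint. Zfp36l1 and Zfp36l2 shared 32 bases, which holds 5 such windows. The aligned coding sequences were 73.7% identical for Cnot6 and Cnot6l, 72.4% for Cnot7 and Cnot8, and 76.3% for Zfp36l1 and Zfp36l2. No exact 28-base window was shared within a nuclease pair. The Ribo-seq mapping allowed 2 mismatches, and with as many, 24 windows of Cnot6 (1.46%) matched Cnot6l and 19 windows of Cnot7 (2.29%) matched Cnot8. For Zfp36l1 and Zfp36l2 it was 69 windows, 6.97% and 4.83% of the windows of each. How such reads were assigned is not given in the sources used here. Sequence elsewhere in the genome overlapped more. All coding windows of Btg4, Cnot6l, Cnot7, Pabpn1l and Cpeb1 had at most 1 place in the genome. So did 99.9% of the windows of Cnot6 and 99.6% of those of Zfp36l2. Windows were cut from spliced coding sequence, so those across an exon junction can lack a place at their own gene. Such a window is also in these shares if its only place is a copy elsewhere. The share was 87.5% for Cnot1, 71.4% for Zfp36l1 and 66.4% for Cnot8, and the other windows of these genes had 2 places. For Cnot8 the second places lay at chr8:74228101-74228862, where nothing is annotated. For Zfp36l1 most lay in the pseudogene Gm14556, and those of the 5 shared windows lay in Zfp36l2. For Cnot1 most lay in Gm6158. Neither Gm14556 nor Gm6158 is listed in the FPKM files.

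Of the 10 genes, 8 were listed above 0 in at least 1 library and 2, Btg4 and Pabpn1l, were listed at 0 in all 4. The plot of levels by gene shows both assays. Values are FPKM, which are per length of transcript for mRNA and of coding sequence for RPF. Low values went better with an effective length, shorter than the full length, than with the full length. Short coding sequences can thus reach a high FPKM from few footprints. Low RPF values fell on steps that imply totals of 533481 and 482327 footprints in the Ribo-seq replicates, against 5473771 and 5206812 fragments in the RNA-seq replicates. Footprint numbers per gene below are inferred from these steps, and their 95% exact Poisson intervals cover counting error only. The 10 genes together held about 140 footprints in replicate 1 and 112 in replicate 2, that is 0.0262% and 0.0232% of the footprints. Low mRNA or RPF in a pool of cells cannot be told apart from expression in fewer cells.

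**Figure D1:**
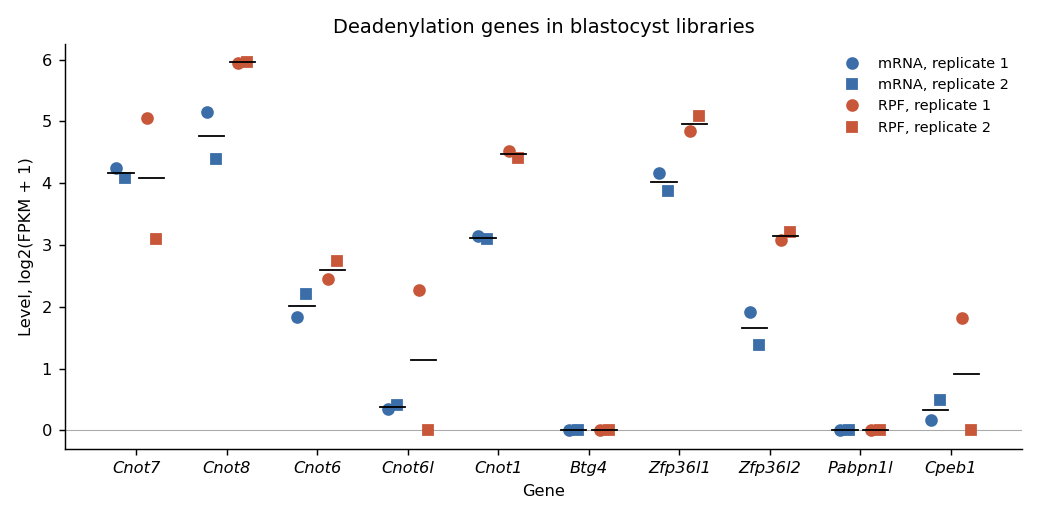
Level of each gene in log2(FPKM + 1) in the 2 RNA-seq libraries (mRNA, blue) and the 2 Ribo-seq libraries (RPF, orange), with black lines at the means of the 2 replicates. Cnot8 was highest in both assays, Btg4 and Pabpn1l were at 0 in every library, and the 2 RPF values of Cnot7 lay far apart.

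The CAF1-type nucleases gave the higher nuclease levels. Cnot8 (chr11:57917655-57932096) was at 34.4 and 19.9 FPKM in mRNA and at 60.9 and 61.0 FPKM in RPF, the latter from 22.0 and 20.0 footprints. Cnot7 (chr8:41577894-41601201) was at 17.9 and 16 FPKM in mRNA and at 32.3 and 7.58 FPKM in RPF, from 11.3 and 2.40 footprints. The RPF of Cnot7 in both replicates, and of Cnot6 in replicate 1, did not fall on whole footprints for the coding length used, so their counts and intervals, which take the nearest whole number, are less certain. Cnot8 mRNA was above Cnot7 mRNA in both replicates, by 1.92-fold and 1.24-fold. In RPF, Cnot8 was 1.88-fold above Cnot7 in replicate 1 (95% counting interval 0.901 to 4.43) and 8.04-fold above it in replicate 2 (2.35 to 85.5), which rests on about 2 Cnot7 footprints. With both replicates summed, the ratio was 3.13 (1.65 to 6.36), from 42 and 13 footprints. Of the Cnot8 windows, 66.4% had at most 1 place in the genome, against 100% for Cnot7, and the part of this in the ratio was not tested.

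Cnot8 varied more between replicates in mRNA, and Cnot7 in RPF. The 2 mRNA values of Cnot8 differed by 0.760 on the log2(FPKM + 1) scale, more than those of 88.8% of the 8327 genes tested, whereas its 2 RPF values differed by 0.00267. The 2 RPF values of Cnot7 differed by 1.96, more than those of 90.9% of genes, whereas its 2 mRNA values differed by 0.153. For Cnot7 the ratio of replicate 1 to replicate 2 was 4.27, with a counting interval of 1.09 to 46.2, so the lower end lay close to no difference. Exons of Cnot7 overlap those of Zdhhc2 on the opposite strand, and Smart-seq2 does not mark strand, so RNA-seq reads there could come from either gene.

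The CCR4-type nucleases were lower. Cnot6 (chr11:49485005-49526225) was at 2.55 and 3.62 FPKM in mRNA and at 4.49 and 5.66 FPKM in RPF, from 3.53 and 4.02 footprints. Cnot6l (chr5:96499352-96593190) was at 0.265 and 0.326 FPKM in mRNA, from 4.31 and 5.05 fragments, and at 3.83 and 0 FPKM in RPF, from 3.0 and 0 footprints. Cnot6 mRNA was 9.61-fold and 11.1-fold above Cnot6l mRNA, so Cnot6 gave 90.6% and 91.7% of the summed mRNA of the pair. The RPF of the pair could not be ordered at this depth: with both replicates summed, 8 Cnot6 footprints stood against 3 of Cnot6l, a ratio of 2.66 with a counting interval of 0.637 to 15.5. An RPF of 0 for Cnot6l in replicate 2 allows up to 4.24 FPKM, the value of 3 footprints, which is above its 3.83 FPKM in replicate 1.

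Summed per nuclease position, Cnot7 plus Cnot8 came to 52.3 and 35.9 FPKM in mRNA and 93.2 and 68.6 FPKM in RPF. Cnot6 plus Cnot6l came to 2.81 and 3.94 FPKM in mRNA and 8.32 and 5.66 FPKM in RPF. The CAF1-type sum was thus 18.6-fold and 9.11-fold above the CCR4-type sum in mRNA, and 11.2-fold and 12.1-fold above it in RPF. All 4 libraries gave the same order. The RPF ratios have no counting interval and rest on few CCR4-type footprints, about 4 and 4 of Cnot6 and 3 and 0 of Cnot6l.

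The scaffold Cnot1 (chr8:98243351-98331366) held the most footprints of the 10 genes. It was at 7.88 and 7.52 FPKM in mRNA and at 21.9 and 20.3 FPKM in RPF, from 81.0 and 67.7 footprints. Its replicates differed by 0.0591 in mRNA and 0.107 in RPF on the log2(FPKM + 1) scale, less than those of most genes (median 0.27 and 0.48). Set against Cnot1 in the same library, Cnot8 was at 4.37 and 2.65 times its level in mRNA and 2.78 and 3.01 times in RPF, while Cnot6 was at 0.324 and 0.481 times in mRNA and 0.205 and 0.279 times in RPF. Cnot7 was at 2.28 and 2.13 times the level of Cnot1 in mRNA, but at 1.48 and 0.374 times in RPF, on both sides of the scaffold. Exons of Cnot1 overlap the lincRNA 4930513N10Rik on the opposite strand.

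**Figure D2:**
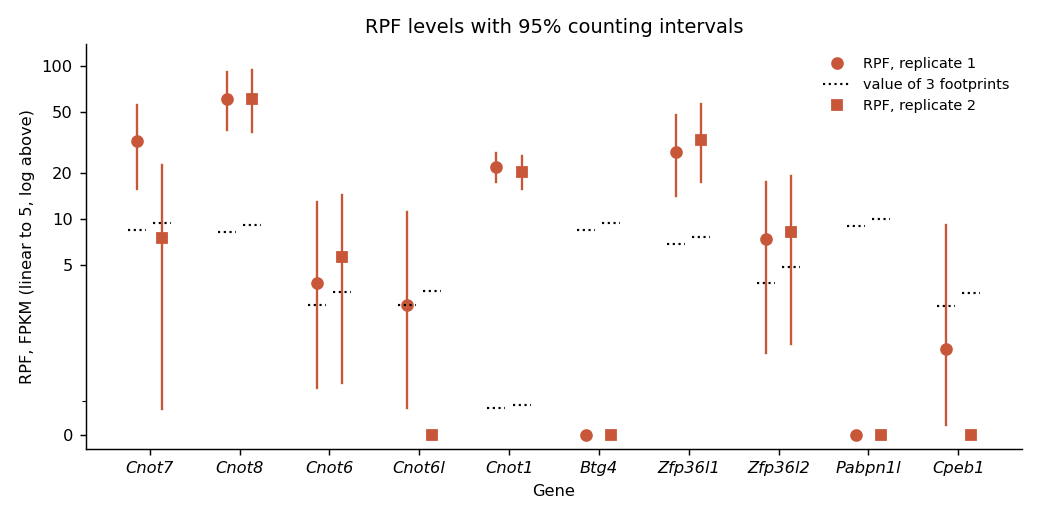
RPF of each gene in FPKM (linear up to 5, logarithmic above) in Ribo-seq replicates 1 (circles) and 2 (squares). Vertical lines are 95% exact Poisson intervals from the inferred footprints and dotted lines mark the value of 3 footprints, which is the limit for values of 0 and stands in place of an interval there. Cnot8, Cnot1 and Zfp36l1 stood well above that value in both replicates, whereas Cnot6l, Cpeb1, Btg4 and Pabpn1l were at or under it. Cnot7 was under it in replicate 2 only.

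The other CCR4-NOT subunits placed the members within their complex. The list held 11 subunits, of which 10 had at least 1 FPKM in both assays, Cnot6l being the exception. Cnot2, a subunit of the NOT module, had the highest mean RPF, at 55.5 and 173 FPKM with mRNA at 21.5 and 15.4 FPKM. Cnot9, which binds recruiting proteins, was at 36.8 and 34.9 FPKM in mRNA and 40.3 and 91.7 FPKM in RPF. Cnot6 was second lowest after Cnot6l in mean RPF, and Cnot8 was the highest after Cnot2 and Cnot9. Relative to Cnot1, Cnot2 RPF was at 2.53 in replicate 1 and 8.56 in replicate 2, so it was below Cnot8 in the first and above it in the second.

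**Figure D3:**
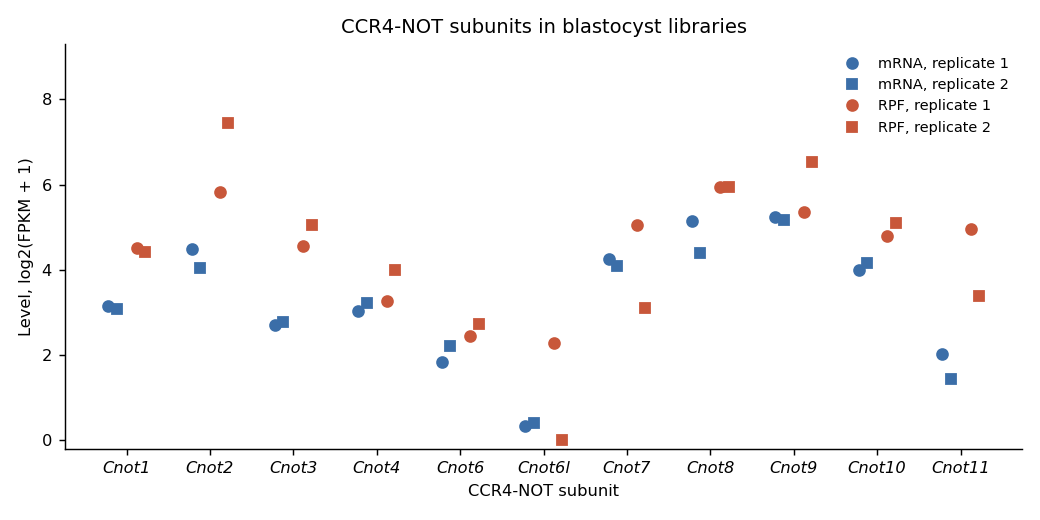
Levels of the 11 CCR4-NOT subunits in log2(FPKM + 1), with mRNA in blue, RPF in orange, and circles and squares for replicates 1 and 2. Cnot6l was the lowest in mRNA in both replicates, and Cnot6l, Cnot7, Cnot2 and Cnot11 had RPF replicates that lay far apart.

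The adaptor Btg4 (chr9:50924106-50927980) was listed at 0 in all 4 libraries. Taking 3 fragments as the limit that a count of 0 allows, this is up to 0.427 and 0.449 FPKM in mRNA and up to 8.51 and 9.42 FPKM in RPF, so the mRNA limit is the tighter. For comparison, 3 of 125 genes of the ribosome, the proteasome and other common functions were at 0 in both assays, and these 3 (Psmb8, Psmb11 and Rpl3l) are known as tissue-restricted forms. Its relatives, which also bind CCR4-NOT, were present. Btg1 was at 8.48 and 4.98 FPKM in mRNA and 35.9 and 26.4 FPKM in RPF, and Btg2 was at 3.31 and 5.85 FPKM in mRNA and 61.6 and 30.2 FPKM in RPF. The RPF rested on 6.05 and 4.02 footprints for Btg1 and on 9.09 and 4.02 for Btg2, and 41.3% of the Btg1 windows had 2 to 20 places. Against the Btg4 limits, Btg1 mRNA was at least 19.9-fold and 11.1-fold higher than Btg4 mRNA, and Btg2 mRNA was at least 7.76-fold and 13.0-fold higher. Btg3 was at 7.42 and 7.55 FPKM in mRNA and at 6.73 and 7.42 FPKM in RPF, about 2 footprints in each replicate, and 89.9% of its coding windows had a second place in the genome. Tob1 was at 0 and 0.648 FPKM in mRNA and 6.33 and 6.98 FPKM in RPF, from 3.0 and 2.99 footprints. Tob2 was above 0 only in the first RNA-seq replicate, at 0.486 FPKM.

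The poly(A)-binding protein Pabpn1l (chr8:125143371-125146639) was also listed at 0 in all 4 libraries, which allows up to 0.578 and 0.608 FPKM in mRNA and 9.05 and 10.0 FPKM in RPF. Its nuclear relative Pabpn1 was at 19.1 and 15.0 FPKM in mRNA and 226 and 210.2 FPKM in RPF. Pabpn1 was therefore at least 33.0-fold and 24.6-fold higher in mRNA and at least 25.0-fold and 21.0-fold higher in RPF. Markers of the oocyte were low beside these zeros: 8 of 10 were at 0 in all 4 libraries, and the summed level of the list was between 0 and 1.92 FPKM. All 7 trophectoderm markers were at 1 FPKM or more in all libraries, with sums from 2820 to 5930 FPKM, and epiblast sums ranged from 58.1 to 851 FPKM. In both RNA-seq libraries, 2 of 5 epiblast and 1 of 5 primitive endoderm markers reached 1 FPKM, against 5 and 4 in both Ribo-seq libraries. Sperm markers summed to 33.7 FPKM in Ribo-seq replicate 2 and to at most 0.515 FPKM in the other libraries. Of the cumulus and granulosa markers, 7 of 9 were at 0 in all libraries, and the blood markers summed to at most 1.83 FPKM.

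Cpeb1 (chr7:88491912-88600351) was close to the limit in every library. It was at 0.128 and 0.402 FPKM in mRNA, from 2.04 and 6.09 fragments, and at 2.54 and 0 FPKM in RPF, from 2.02 and 0 footprints. Its relative Cpeb2 was at 2.91 and 2.71 FPKM in mRNA and 19.2 and 5.93 FPKM in RPF, and in RNA-seq replicate 2 the mRNA of Cpeb2 was 6.75-fold above that of Cpeb1. Cpeb4 was at 1.03 and 0.973 FPKM in mRNA and 9.77 and 4.20 FPKM in RPF, and Cpeb3 at 0.698 and 1.51 FPKM in mRNA and 17.6 and 1.11 FPKM in RPF. All 3 relatives had lower RPF in the second Ribo-seq replicate than in the first, as Cpeb1 did. In the list of 12 CPEB and oocyte mRNA masking genes, 4 (Zar1, Zar1l, Eif4e1b and Dazl) were at 0 in all libraries.

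The recruiters Zfp36l1 and Zfp36l2, which bind AU-rich elements, were both present. Zfp36l1 (chr12:81208747-81214000) was at 17.0 and 13.6 FPKM in mRNA and 27.6 and 32.9 FPKM in RPF, from 12.0 and 13.0 footprints. Zfp36l2 (chr17:84583271-84587287) was at 2.79 and 1.60 FPKM in mRNA and 7.46 and 8.23 FPKM in RPF, from 5.00 and 4.98 footprints. Zfp36l1 was 6.08-fold and 8.52-fold above Zfp36l2 in mRNA, and 3.69-fold (counting interval 1.21 to 13.4) and 4.00-fold (1.34 to 14.3) above it in RPF. Zfp36, from the same family, lay between them at 6.16 and 4.79 FPKM in mRNA and 14.8 and 19.1 FPKM in RPF, and Zfp36l3 was at 0 in all 4 libraries. The order Zfp36l1, Zfp36, Zfp36l2 held in each of the 4 libraries. In RPF, Zfp36 rested on 6.01 and 6.98 footprints, near the 5.00 and 4.98 of Zfp36l2, and no counting interval was made for its ratios. Of the Zfp36l1 windows, 71.4% had at most 1 place, and the shared run printed above holds the 5 windows of Zfp36l2 that also occur in Zfp36l1.

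Across the 10 genes, the order of mean mRNA was Cnot8 (27.1 FPKM), Cnot7 (17.0), Zfp36l1 (15.3), Cnot1 (7.70), Cnot6 (3.08), Zfp36l2 (2.2), Cnot6l (0.296) and Cpeb1 (0.265), followed by the pair listed at 0. The replicate ranges of Cnot7 and Zfp36l1 overlapped, as did those of Cnot6 and Zfp36l2 and those of Cnot6l and Cpeb1. The order of mean RPF was Cnot8 (60.9 FPKM), Zfp36l1 (30.2), Cnot1 (21.1), Cnot7 (20.0), Zfp36l2 (7.84), Cnot6 (5.07), Cnot6l (1.91) and Cpeb1 (1.27). The range of Cnot7 overlapped those of Zfp36l1, Cnot1 and Zfp36l2, and Cnot6l, Cpeb1 and the genes at 0 could not be ordered. Cnot8 exceeded 90.6% of the 20714 symbols in mRNA and 87.7% in RPF, while Cnot6l exceeded 49.3% and 55.3%, close to the middle of a list in which many genes are at 0.

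RPF was next compared with mRNA per gene. The difference is that of log2(FPKM + 1) after centring each library on the median of the tested genes, and a gene was called at an adjusted p under 0.05 (limma, Benjamini-Hochberg over all genes tested) with a difference of at least 1. Among the 8327 genes with a mean of at least 1 FPKM in both assays, 12.0% were called, 6.65% with higher RPF and 5.31% with lower RPF (554 and 442 genes, against 4113 and 65 without centring). The calls needed both RNA-seq libraries, since 0 genes passed in limma without RNA-seq replicate 1 or without replicate 2, where 1279 and 1244 had an unadjusted p under 0.05, and 2819 and 2827 passed without Ribo-seq replicate 1 or 2. Of the 10 members, 6 entered the test and 0 were called, with 1 at an unadjusted p under 0.05, against 36.3% of all genes tested. The other 4, Btg4, Pabpn1l, Cnot6l and Cpeb1, were too low to be tested. The differences of the 6 had a median of -0.44, against -0.24 for all genes tested.

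Cnot6 had the smallest p of the 6, with a difference of -0.92 (SE 0.30, 95% interval -1.74 to -0.11, limma adjusted p = 0.111). Its centred RPF was below its centred mRNA in every pairing of libraries, as was also the case for Cnot7, Cnot1 and Zfp36l1. The share of all genes tested with such a separation was not counted, so no result about the members is drawn from it. Without Ribo-seq replicate 2 Cnot6 passed the threshold, at -1.12 with a limma adjusted p of 0.0429, a value that rests on 1 Ribo-seq library with 3.53 inferred Cnot6 footprints. With quantile normalization the difference was -0.47 (limma adjusted p = 0.36), and its range over all alternatives with centring or quantile normalization was -1.12 to -0.47. Cnot7 had the largest difference, -1.59 (SE 0.70, interval -3.52 to 0.34, adjusted p = 0.187 by limma), and the wide interval goes with its 2 unequal RPF values. Without Ribo-seq replicate 1, where its RPF was the higher, Cnot7 passed the threshold at -2.58 with a limma adjusted p of 0.00515, a value that rests on 1 Ribo-seq library with about 2 Cnot7 footprints. Without Ribo-seq replicate 2 it was -0.66, with a limma adjusted p of 0.136.

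Cnot8 stood at -0.31 (SE 0.36, interval -1.31 to 0.68), Cnot1 at -0.16 (SE 0.24, interval -0.81 to 0.49), Zfp36l1 at -0.56 (SE 0.28, interval -1.34 to 0.22), and Zfp36l2 at -0.01 (SE 0.31, interval -0.87 to 0.86), with limma adjusted p-values from 0.23 to 0.985. The intervals of Cnot8 and Zfp36l1 reached past -1, and those of Cnot1 and Zfp36l2 stayed within 1 either way. These values are relative to the library medians, which were 1.50 higher on the log2 scale in Ribo-seq than in RNA-seq. Without centring, Cnot6, Cnot8, Cnot1, Zfp36l1 and Zfp36l2 turned positive, at 0.58, 1.19, 1.34, 0.94 and 1.49, while Cnot7 stayed at -0.09.

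**Figure D4:**
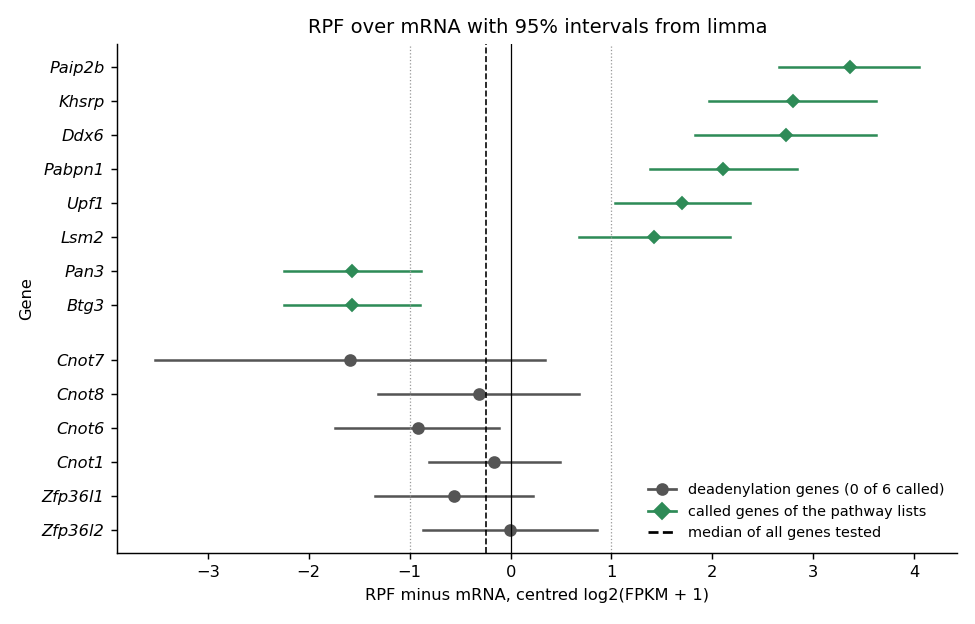
Difference of centred log2(FPKM + 1) between RPF and mRNA with 95% intervals from limma for the 6 members tested (grey circles) and for the 8 called genes of the decay lists (green diamonds). The dashed line is the median of all genes tested, and dotted lines mark differences of 1 either way. The members lay between -1.59 and -0.01, and the called genes lay beyond 1 or -1, which the call requires.

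The rest of the decay machinery was described by 11 lists with 119 genes, the 10 members included. Of these, 92 were tested, 6 were called with higher RPF, 2 with lower RPF and 84 were not called. The share called, 8 of 92, can be read against the background of 12.0%. The median difference over the lists was -0.05, and 10 genes were at 0 in all 4 libraries. The CCR4-NOT list had 0 of 10 tested genes called and a median of -0.47.

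The 5 largest calls with higher RPF came from 4 lists. Paip2b, an inhibitor of poly(A)-binding protein, was at 17.0 and 19.3 FPKM in mRNA and 532 and 577 FPKM in RPF, a difference of 3.36 (SE 0.25, limma adjusted p = 0.017). Its coding sequence has 411 bases and held 60.1 and 58.8 inferred footprints, and the part of this short length in the difference was not tested. Khsrp, an AU-rich element binder, was at 5.24 and 7.57 FPKM in mRNA and 134 and 153 FPKM in RPF, a difference of 2.80 (SE 0.30, limma adjusted p = 0.0247). Ddx6, a helicase that joins CCR4-NOT to decapping, was at 4.69 and 5.37 FPKM in mRNA and 92.8 and 135 FPKM in RPF, a difference of 2.73 (SE 0.32, limma adjusted p = 0.0282). Pabpn1, with the values above, differed by 2.11 (SE 0.26) and the nonsense-mediated decay helicase Upf1 by 1.70 (SE 0.24), with limma adjusted p-values of 0.0293 and 0.0343. In all 5, both RPF values stood above both mRNA values also after centring. These genes were picked by their call in the same centred fit, so this is no separate support. Of the Ddx6 windows, 73.1% had at most 1 place in the genome. The 5 kept differences of 1.63 to 3.44 without RNA-seq replicate 1 or 2, but not the call, with limma adjusted p-values of 0.309 and 0.327.

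The calls with lower RPF were Btg3 and Pan3, the partner of the deadenylase PAN2. Pan3 was at 12.0 and 12.2 FPKM in mRNA and 10.9 and 12.1 FPKM in RPF, a difference of -1.57 (SE 0.25, limma adjusted p = 0.0386), and Btg3 also differed by -1.57 (SE 0.25, limma adjusted p = 0.0383). Their uncentred values were about equal in both assays, so the call rests on the centring. Both calls were also lost with a pseudocount of 0.1, at limma adjusted p-values of 0.0536 for Btg3 and 0.0537 for Pan3, and without RNA-seq replicate 1 or 2, at 0.311 and 0.327, and for Btg3 the call was lost when the rows of a repeated symbol were summed, at -1.23 with a limma adjusted p of 0.0531.

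The lists differed widely in level. Decapping and 5′-to-3′ decay genes had a median RPF of 51.5 FPKM and reached 907 FPKM (Lsm5), and exosome and 3′-to-5′ decay genes had a median of 56.4 FPKM with Exosc8 highest at 191 FPKM. The lowest genes of these lists were Dcp1b at 2.16 FPKM and Ttc37 at 2.14 FPKM. Lsm5 has a coding sequence of 276 bases and held 40.0 and 51.1 inferred footprints. Of its windows, 73.5% had 2 to 20 places in the genome, and for Lsm6 and Lsm7 this share was 78.2% and 91.6%. The part of length and of such places in the list levels was not tested. CCR4-NOT subunits had a median RPF of 21.1 FPKM, other deadenylases 9.47 FPKM (from Angel1 at 2.23 to Noct at 54.7 FPKM), and tail-adding enzymes 11.0 FPKM (from Tent4a at 0 to Tut7 at 13.2 FPKM). The median was 10.8 FPKM for nonsense-mediated decay, from Smg6 at 4.66 to Upf1 at 38.7 FPKM, and 1.72 FPKM for miRNA silencing, from Ago3 at 0.825 to Ago2 at 19.4 FPKM. Recruiters of deadenylation had a median of 12.4 FPKM, poly(A)-binding proteins and regulators 45.9 FPKM (Pabpc5 at 0), BTG and TOB adaptors 6.86 FPKM, and CPEB and masking genes 5.88 FPKM. Of the members, Cnot8 alone was above the median of the decapping list and of the exosome list in mean RPF.

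**Figure D5:**
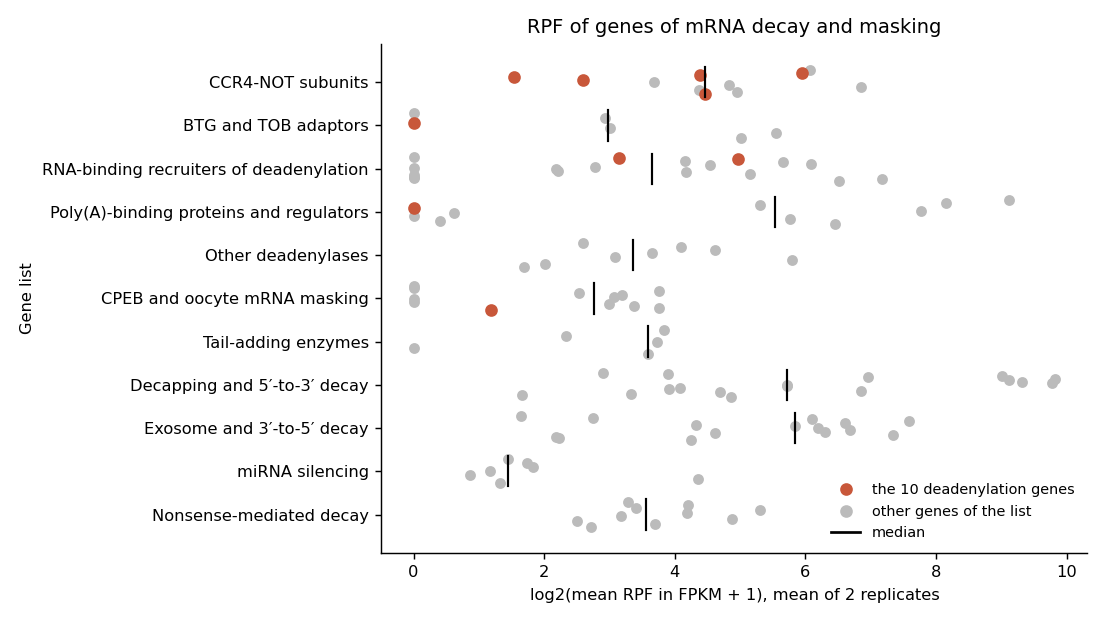
Mean RPF of the 2 replicates as log2(FPKM + 1) for each gene of the 11 lists, with the 10 members in orange, other genes in grey and the median of each list as a black line. Decapping and exosome lists had medians of 51.5 and 56.4 FPKM, and miRNA silencing the lowest, at 1.72 FPKM.

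For each tested member, the gene of the lists with the most similar levels was found by the Euclidean distance over the 4 log2 levels. These were Samd4b for Cnot6 (distance 0.33), Cnot10 for Zfp36l1 (0.34), Dis3 for Cnot1 (0.45), Pan2 for Zfp36l2 (0.46) and Ythdf2 for Cnot8 (0.59). Cnot7 had no close neighbour, and its nearest gene, Dcps, lay at a distance of 1.38. Ythdf2, a reader of m6A that recruits CCR4-NOT, was at 28.7 and 26.5 FPKM in mRNA and 77.8 and 56.3 FPKM in RPF, beside 34.4, 19.9, 60.9 and 61.0 FPKM for Cnot8.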

How the data were processed

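Mouse blastocyst RNA-seq (Smart-seq2) and Ribo-seq (Ribo-lite) were analysed, with 2 libraries each, grouped by their labels. The authors deposited FPKM per gene. For these values they trimmed reads with Trim Galore 0.4.2 (RNA-seq) or cutadapt 1.14 (Ribo-seq), discarded rRNA reads of Ribo-seq with Bowtie2 2.2.2, mapped with STAR 2.5.3a to the mm9 transcriptome at up to 20 places, and ran Cufflinks 2.2.1, for Ribo-seq on coding sequences. A repeated symbol took its highest value. RPF over mRNA was fitted with limma 3.58.1 (R 4.3.3) on log2(FPKM + 1), a scale that understates changes of low genes, for genes with a mean of at least 1 FPKM in both assays. Fragment totals were those at which low FPKM fell on whole fragments, for an effective length with fragments of mean 200 and SD 80 bases. At these totals 62.7% to 64.7% of low RNA-seq values and 82.1% to 83.3% of low Ribo-seq values lay within 0.1 of a whole number. These were 576 to 923 values per library, from genes with 1 coding transcript. Chance gives 20% at a fixed total, but the totals were chosen for this closeness, so the shares are no test. Full transcript or coding lengths, fitted in the same way, gave 46.0% to 48.5% and 38.3% to 40.9%. FPKM lack counts, so no count test was run. Windows of 28 bases and coordinates came from NCBIM37 and GENCODE vM1, and the steps were tested on simulated data. Python 3.11.15 served for the rest. The members and lists were chosen with earlier results of these data known. Named genes were the members, their paralogs, called genes of the lists (up to 5 per direction, at 10 FPKM or more), the highest and lowest gene of each list, and the nearest gene to each member. Genes named beyond this rule (Cnot9, Cnot11 and the masking genes at 0) were chosen after their values were seen. Alternatives were 13 settings of the fit.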

Additional observations from a re-analysis of the deposited data

How the results depend on the processing

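The number of genes called in RPF over mRNA by limma was 996 (554 higher, 442 lower). It was 462 (308 and 154) with a pseudocount of 0.1, 283 were lower with a pseudocount of 0.5, and it was 4492 (1396 and 3096) with no filter on low values, 4178 (4113 and 65) with no centring and 1577 (861 and 716) with a trend in the prior. With a mean of at least 5 FPKM, 751 were lower. Of the calls, 55.6% were higher, against 98.4% with no centring. With the replicate number as a block it was 0 (2594 genes at an unadjusted p under 0.05), for the genes of the lists 0 and for the members 0. Same-numbered libraries had deviations with a correlation of 0.01, so the numbers were not taken to pair them. Leaving out 1 library gave 0 to 2827 calls (0 to 1187 higher, 0 to 1647 lower), 0 to 31 among the lists and 0 to 1 among the members. The counts were 0 without either RNA-seq replicate, with 1279 and 1244 genes at an unadjusted p under 0.05, and 2819 and 2827 without either Ribo-seq replicate. The lone library was then assumed to vary like the others.

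Among the genes of the lists, 8 were called, and 5 with a pseudocount of 0.1, 22 with no filter, 51 with no centring and 13 with a trend. With no centring 2 members, Cnot1 and Zfp36l2, were called. Cnot8 ranged from -0.70 to 0.08 and Zfp36l2 from -0.29 to 0.27 when 1 library was left out. Cnot8 turned to 0.08 without RNA-seq replicate 1, Cnot1 to 0.11 with no filter, and Zfp36l2 to 0.24 and 0.11 with pseudocounts of 0.1 and 0.5, 0.26 with no filter, 0.50 with quantile normalization, 0.27 without RNA-seq replicate 1 and 0.04 without Ribo-seq replicate 1. With no centring the values were 0.58 for Cnot6, 1.19 for Cnot8, 1.34 for Cnot1, 0.94 for Zfp36l1 and 1.49 for Zfp36l2. The cause was not tested, except that leaving out a library or filtering changes the samples or genes fitted. In 61 of 76 fits of a member, direction and call were kept. Full transcript or coding lengths gave totals of 4963781 and 4729255 fragments in RNA-seq and 464273 and 423360 in Ribo-seq. The Ribo-seq depth limits Btg4, Pabpn1l, Cnot6l and Cpeb1, for which 3 footprints are worth 3.79 to 10.0 FPKM. It also limits Cnot7 in Ribo-seq replicate 2, at 7.58 FPKM against 9.46 FPKM for 3 footprints.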
